A study of Mus musculus with 12 samples.

Results

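Selenow, Selenoh, Selenok, Gpx1 and Msrb1 are 5 selenoprotein genes known for messenger RNA levels that follow dietary selenium (Se). They were taken by name, as every probe set of the array annotated to one of them and to no other gene, under their present symbols or the older Sepw1, Selh, Selk and Sepx1. This gave 7 probe sets for the 5 genes, among 13710 genes with a name in the table. Selenow had the probe sets 1416521_at and 1460561_x_at, Selenok had 1423225_at and 1447909_s_at, Selenoh had 1436349_at, Gpx1 had 1460671_at and Msrb1 had 1418888_a_at.

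Total RNA of liver and lung was measured on Affymetrix mouse genome expression arrays, which read the 3′ part of transcripts. The mice were wild-type males of the FVB/N strain, placed at weaning on a Se-deficient torula yeast diet that every group shared, and kept on it for 6 weeks. The diet was given with 0 ppm of added Se (0 Se, the deficient mice) or with 0.1 ppm of Se as sodium selenite (0.1 Se, the adequate control). With 3 biological replicates in each of the 4 groups (0 Se liver, 0.1 Se liver, 0 Se lung and 0.1 Se lung) there were 12 arrays. The labels do not say which liver and lung came from 1 mouse, and they name no batch.

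Se enters proteins as selenocysteine, an amino acid placed at a UGA codon that would otherwise end translation. A stem-loop in the 3′ untranslated region of selenoprotein messenger RNAs directs that decoding, and when Se is short, some of these messenger RNAs are degraded by nonsense-mediated decay, a pathway that removes transcripts read as ending too early. Selenoproteins are therefore spoken of as a hierarchy, with stress-related members such as Gpx1 most open to Se supply and housekeeping members such as Gpx4 less so. Selenow and Selenoh are small proteins with a thioredoxin-like fold, the latter in the nucleolus. Selenok sits in the membrane of the endoplasmic reticulum. Gpx1 is the cytosolic glutathione peroxidase that reduces hydrogen peroxide, and Msrb1 repairs oxidized methionine in proteins.

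The probe sets cover genes at these places on the GRCm38.p6 assembly: Selenow on chromosome 7 from 15917208 to 15922371 (minus strand), Selenoh on chromosome 2 from 84669215 to 84670708 (minus strand), Selenok on chromosome 14 from 29968380 to 29975074 (plus strand), Gpx1 on chromosome 9 from 108339080 to 108340342 (plus strand) and Msrb1 on chromosome 17 from 24736593 to 24742778 (plus strand). The positions of single probes were not used here. The 150 bases before the RefSeq start of the 3 members with the largest diet differences in liver are shown, so that their sequences can be set beside each other. Each is written 5′ to 3′ on the strand of its gene, and capitals mark matches to the motifs searched.

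Selenow, chr7:15922372-15922521, minus strand: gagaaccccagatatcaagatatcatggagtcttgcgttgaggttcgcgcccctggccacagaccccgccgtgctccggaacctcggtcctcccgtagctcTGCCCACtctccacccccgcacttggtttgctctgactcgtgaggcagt
Selenoh, chr2:84670709-84670858, minus strand: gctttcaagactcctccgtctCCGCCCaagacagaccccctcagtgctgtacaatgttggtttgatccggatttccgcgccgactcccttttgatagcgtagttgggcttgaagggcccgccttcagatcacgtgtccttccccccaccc
Selenok, chr14:29968230-29968379, plus strand: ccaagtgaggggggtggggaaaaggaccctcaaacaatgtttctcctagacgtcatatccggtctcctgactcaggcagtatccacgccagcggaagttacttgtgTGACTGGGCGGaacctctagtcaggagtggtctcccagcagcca

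The motifs, 4 in number, were searched on both strands in the 250 bases before the start, and none of them was in all 5 promoters. The pattern TGCNCNC occurred once in Selenow and in 44.7% of the 32536 promoters of the RefSeq table. It is looser than the metal response element core, which takes only A or G after TGC. The match in Selenow, TGCCCAC, has C there and so is not that core. The GC box GGGCGG occurred once in Selenoh (on the opposite strand), once in Selenok and 2 times in Msrb1, against 33.0% of all promoters. The antioxidant response element core TGACNNNGC occurred once, in Selenok, where it overlapped the GC box, against 10.2% of all promoters. The interferon-stimulated response element core (GAAA, any 2 bases, GAAA, in 2.98% of all promoters) was in none of the 5 windows, and the window of Gpx1 held none of the 4. A match is a description of letters and not a site of binding.

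The 5 members stood at very different places of the response to Se in liver. Values are log2 signals, so a step of 1 is a doubling of signal, and a diet difference is 0.1 Se minus 0 Se with its standard error (SE). Selenow (_x_at) read 8.40, 8.88 and 8.97 on the 3 arrays of 0 Se liver and 10.68, 10.69 and 10.25 on those of 0.1 Se liver. The lowest array on 0.1 Se lay well above the highest on 0 Se. The difference was 1.79 ± 0.19, or 3.46-fold, with a 95% interval of 1.37 to 2.20 (limma adjusted p = 0.0171), and Selenow had the smallest p of the 16575 probe sets tested in liver. This call was lost when any 1 array of 0 Se liver was left out (adjusted p = 0.117, 0.0587 and 0.121 without replicates 1, 2 and 3) or without replicate 2 of 0.1 Se liver (adjusted p = 0.0894), while the size stayed from 1.61 to 1.94 over the arrays left out in turn. Over the other settings its adjusted p ran from 0.00283 to 0.672. The ending _x_at marks probes that can bind related transcripts. The other Selenow probe set, ending in _at, listed no value on any liver array.

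Selenoh was the member next in size. It read 8.94, 8.73 and 8.92 in 0 Se liver against 9.71, 10.21 and 10.01 in 0.1 Se liver, and the diets did not overlap. The difference of 1.11 ± 0.16 (2.17-fold, interval 0.76 to 1.47) had the third smallest p of the table, but did not pass adjustment (limma adjusted p = 0.159). Without replicate 1 of 0.1 Se liver it passed (adjusted p = 0.0336), with a range of 0.0114 to 0.675 over all its alternatives.

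Selenok was measured by both of its probe sets, and they gave near values. With the _s_at probe set, the arrays read 12.13, 11.75 and 12.31 in 0 Se liver and 12.84, 12.90 and 12.90 in 0.1 Se liver. With the _at probe set they read 11.80, 11.34 and 11.88 against 12.17, 12.54 and 12.51. Neither overlapped between diets, and in both the lowest array was replicate 2 of 0 Se liver. The differences were 0.82 ± 0.13 (limma adjusted p = 0.176) and 0.73 ± 0.15 (adjusted p = 0.416).

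Gpx1 had a log2 signal close to the top of the table, whose highest value was 16.4. It read 14.61, 14.58 and 14.94 in 0 Se liver and 15.29, 15.26 and 15.24 in 0.1 Se liver, again without overlap and with the 3 adequate arrays within a narrow band (SD 0.025). The difference was 0.56 ± 0.11, or 1.47-fold (limma adjusted p = 0.377).

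Msrb1 was the member that separated the diets least. Its arrays read 12.46, 12.38 and 12.59 in 0 Se liver and 13.06, 12.57 and 12.66 in 0.1 Se liver, where replicate 2 on 0.1 Se lay under replicate 3 on 0 Se. The difference of 0.28 ± 0.13 (interval 0.001 to 0.57, limma adjusted p = 0.747) fell to 0.14 without replicate 1 of 0.1 Se liver.

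In all, 1 of the 6 member probe sets tested in liver passed adjustment, where 0.0121% of all probe sets tested did (2 of 16575). At an unadjusted p under 0.05, 6 of 6 were higher on 0.1 Se, against 2.94% of all probe sets tested. The 3 arrays on 0.1 Se all lay above the 3 on 0 Se for 5 of the 6, against 4.99% of the 14759 probe sets with a value on every liver array. The members' median difference was 0.77, where the median of all probe sets tested was -0.0047.

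**Figure D1:**
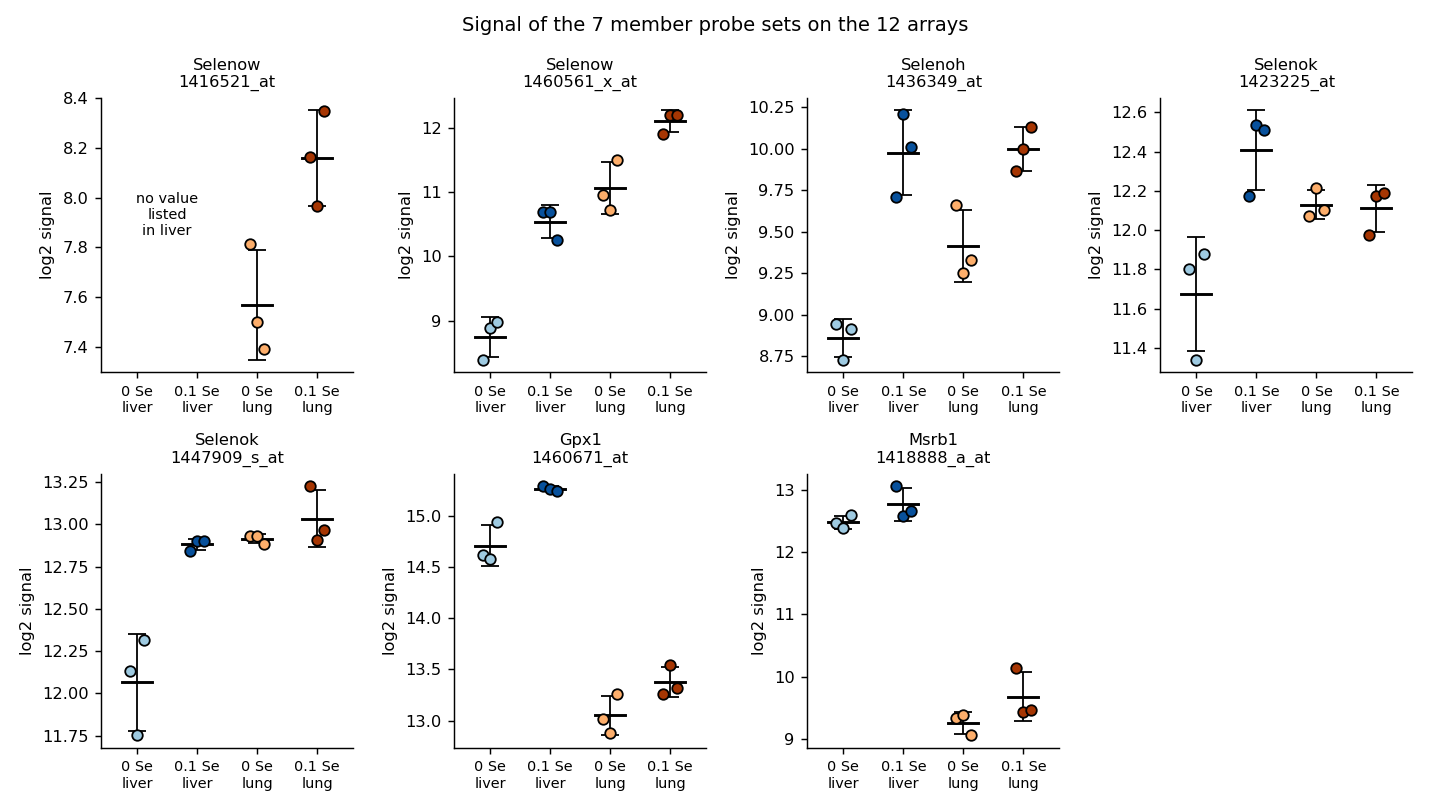
Log2 signal (vertical axes, each with its own range that does not start at 0) of the 7 member probe sets in the 4 groups of 3 arrays. Points are arrays, thick lines means and bars SD. Selenow (_x_at) runs from 8.75 in 0 Se liver through 10.54 and 11.06 to 12.10 in 0.1 Se lung, while Msrb1 and Gpx1 were lower in lung than in liver on both diets.

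In lung, Selenow and Selenoh again had the largest differences, but no member passed adjustment. Selenow (_x_at) read 10.96, 10.71 and 11.50 in 0 Se lung and 11.90, 12.20 and 12.19 in 0.1 Se lung, without overlap. The difference was 1.04 ± 0.17, or 2.06-fold (interval 0.66 to 1.42, limma adjusted p = 0.0777). It passed without replicate 3 of 0 Se lung, the highest deficient array (1.26, adjusted p = 0.0304), and without replicate 1 of 0.1 Se lung (1.14, adjusted p = 0.0374), with a range of 0.0168 to 0.653 over all its alternatives.

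The other probe set of Selenow was near the low end of the table in lung, where the lowest listed value was 6.64. It read 7.81, 7.50 and 7.39 on 0 Se and 8.16, 7.96 and 8.35 on 0.1 Se. Its diets did not overlap either, and the difference was 0.59 ± 0.18 (limma adjusted p = 0.403), which is 0.45 less than that of the _x_at probe set. The lung difference of Selenow had the same direction with each probe set, their 95% intervals overlapped (0.20 to 0.98 and 0.66 to 1.42), and whether the sizes differed was not tested.

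Selenoh read 9.66, 9.25 and 9.33 in 0 Se lung and 9.86, 9.997 and 10.13 in 0.1 Se lung, without overlap. The difference was 0.58 ± 0.13 (interval 0.29 to 0.87, limma adjusted p = 0.218). Gpx1 read 13.01, 12.88 and 13.26 against 13.26, 13.54 and 13.32. Here the highest deficient array (13.258) and the lowest adequate array (13.261) all but touched, and the difference was 0.32 ± 0.12 (limma adjusted p = 0.536).

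Msrb1 read 9.34, 9.39 and 9.06 in 0 Se lung and 10.13, 9.44 and 9.48 in 0.1 Se lung. Replicate 1 on 0.1 Se stood apart from the other two, and the difference of 0.42 ± 0.18 (limma adjusted p = 0.640) fell to 0.19 without it. The same array had the highest summed signal of the neutrophil markers in the list, 17092 against 4281 and 4238 on the other adequate lung arrays and 2956, 3111 and 1171 on the deficient ones. It was also the highest lung array for the macrophage and Kupffer cell (16316) and the NK and T cell markers (6340). For alveolar type 2 (96082), alveolar type 1 (79670) and club and ciliated cell markers (91644) it was the lowest lung array. The part of these lists in the Msrb1 value was not tested.

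Selenok was the member whose diets overlapped in lung. With the _s_at probe set the arrays read 12.93, 12.93 and 12.88 on 0 Se and 13.23, 12.91 and 12.97 on 0.1 Se. With the _at probe set they read 12.07, 12.21 and 12.10 against 11.97, 12.17 and 12.19. The diets overlapped with both, and the differences were 0.12 ± 0.10 (interval -0.10 to 0.34, limma adjusted p = 0.847) and -0.02 ± 0.09 (interval -0.22 to 0.18, adjusted p = 0.977). Without replicate 1 of 0.1 Se lung, the array that stood apart for Msrb1, these were 0.023 and 0.051.

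Of the 7 member probe sets tested in lung, 0 passed adjustment, where 0.0924% of all did (20 of 21655 by limma). At an unadjusted p under 0.05, 5 of the 7 were higher on 0.1 Se, against 3.55% of all probe sets tested. The adequate arrays all lay above the deficient ones for 5 of the 7, against 6.07% of the 20062 probe sets with a value on every lung array. The median difference of the 7 was 0.42, and that of all probe sets tested was -0.01.

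**Figure D2:**
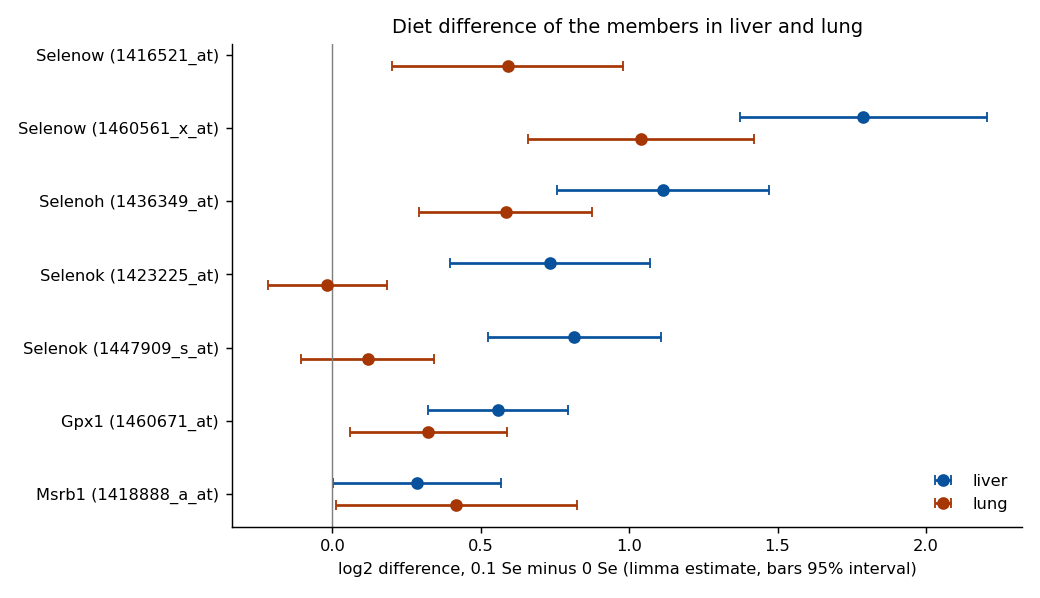
Diet difference in log2 signal (horizontal axis, 0.1 Se minus 0 Se, limma estimate with its 95% interval) of each member probe set in liver and lung. The interval of Selenow (_x_at) runs from 1.37 to 2.20 in liver and from 0.66 to 1.42 in lung, and both Selenok intervals in lung include 0.

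Whether a member answered the diet to a different extent in lung than in liver was asked with an interaction term in the 4-group fit, on the 15112 probe sets with at least 2 values in each group. None of the 6 member probe sets tested passed adjustment, and 0.0% of all probe sets did (0 by limma, 931 at an unadjusted p under 0.05). The smallest p-values among the members were those of Selenok, whose diet difference was smaller in lung by 0.70 ± 0.17 with the _s_at probe set (limma, unadjusted p = 0.00114, adjusted p = 0.574) and by 0.75 ± 0.19 with the _at probe set (unadjusted p = 0.00138, adjusted p = 0.574). For Selenow the difference between tissues was -0.75 ± 0.28 (limma adjusted p = 0.760) and for Selenoh -0.53 ± 0.21 (adjusted p = 0.760). At an unadjusted p under 0.05, these 4 of the 6 (3 genes) were smaller in lung, against 2.92% of all probe sets tested. For the other selenoproteins, 9 of 10 interaction estimates were also below 0 (median -0.22). Of those 10, 3 were smaller in lung at an unadjusted p under 0.05 by limma, against the same 2.92%, and 1 was larger. Gpx1 gave -0.23 ± 0.17 (limma adjusted p = 0.871), and Msrb1 gave 0.13 ± 0.24 (interval -0.38 to 0.65, adjusted p = 0.954), the only member with the larger estimate in lung. Without replicate 1 of 0.1 Se lung, the Msrb1 value was -0.092.

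The members differed in which tissue had the higher level. Lung exceeded liver for Selenow on both diets, and liver exceeded lung for Gpx1 and Msrb1 on both diets. Here a tissue difference is lung minus liver in log2 signal of the same probe set, and it rests on the scaling of each array by the authors, under which the median of all probe sets tested lay at 0.18 on 0 Se and 0.19 on 0.1 Se.

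Msrb1 had the largest tissue difference of the 5. It was -3.21 ± 0.17 on 0 Se, or 9.27-fold higher in liver, and -3.08 ± 0.17 on 0.1 Se (limma adjusted p = 1.81e-10 and 2.82e-10). Gpx1 followed at -1.66 ± 0.12 and -1.89 ± 0.12 (limma adjusted p = 4.79e-09 and 1.00e-09), and at -0.93 and -1.11 after quantile normalization. For both genes in the deposited values, every lung array lay under every liver array of either diet.

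Selenow (_x_at) was higher in lung by 2.31 ± 0.20 on 0 Se and by 1.56 ± 0.20 on 0.1 Se (limma adjusted p = 3.82e-08 and 3.26e-06). Its other probe set also listed values in lung alone. Over the 4 groups its levels ran in the order 0 Se liver, 0.1 Se liver, 0 Se lung and 0.1 Se lung. The neighbours 0.1 Se liver and 0 Se lung lay close, with the highest of the former at 10.69 and the lowest of the latter at 10.71, and their difference was not tested.

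Selenoh and Selenok had a tissue difference on the deficient diet that was not detectable on the adequate one. Selenoh was higher in lung by 0.55 ± 0.15 on 0 Se (limma adjusted p = 0.00376) and differed by 0.02 ± 0.15 on 0.1 Se (interval -0.30 to 0.34, adjusted p = 0.904). Selenok with the _s_at probe set was higher in lung by 0.85 ± 0.12 on 0 Se (limma adjusted p = 1.41e-05) and differed by 0.15 ± 0.12 on 0.1 Se (interval -0.11 to 0.41, adjusted p = 0.267). With the _at probe set the values were 0.46 ± 0.13 (limma adjusted p = 0.00681) and -0.29 ± 0.13 (adjusted p = 0.0603). The test of the change between diets is the interaction above, in which neither gene passed adjustment. The direction on 0.1 Se turned with the scaling: median centring of the arrays gave -0.18 for Selenoh and -0.049 for Selenok (_s_at), and quantile normalization gave 0.35 for Selenok (_at, adjusted p = 0.0228) and 0.95 for Selenok (_s_at, adjusted p = 6.97e-06). Selenok (_at) passed the other way with median centring (-0.50, limma adjusted p = 0.00395) and without replicate 1 of 0.1 Se liver (-0.41, adjusted p = 0.0141), with a range of 0.00395 to 0.188 over its alternatives. On 0 Se, quantile normalization took Selenok to 1.53 (_s_at) and 1.04 (_at), and median centring took Selenoh to 0.36. Without replicate 2 of 0 Se liver, Selenok (_at) was 0.29 (adjusted p = 0.0465), and median centring left it at 0.26 (adjusted p = 0.0986, against 2.51e-06 to 0.0986 over its alternatives).

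The order of the groups therefore differed between the members. In Selenoh, 0 Se liver was lowest, 0 Se lung came next, and 0.1 Se liver (9.98 ± 0.25, SD, n = 3) and 0.1 Se lung (9.998 ± 0.13) did not differ beyond their spread. In Selenok (_s_at), 0 Se liver stood below the other 3 groups, whose means lay from 12.88 to 13.03. There 0 Se lung overlapped both neighbours, and the highest array of 0.1 Se liver (12.902) lay just under the lowest of 0.1 Se lung (12.911). With the _at probe set of Selenok, 0 Se liver was again lowest (11.67), but 0.1 Se liver (12.41) had a higher mean than 0 Se lung (12.13) and 0.1 Se lung (12.11), so the order depended on the probe set. In Gpx1 and Msrb1 the order was 0 Se lung, 0.1 Se lung, 0 Se liver and 0.1 Se liver.

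Tissue differences were common in the table, so their number says little about these genes. On 0 Se, 6 of 6 member probe sets passed, against 73.6% of all probe sets tested. Of these, 4 were higher in lung, against 42.8% of all, and 2 lower, against 30.7%. On 0.1 Se, 3 of 6 passed, against 74.0%, with 1 higher in lung (43.4% of all) and 2 lower (30.6% of all).

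**Figure D3:**
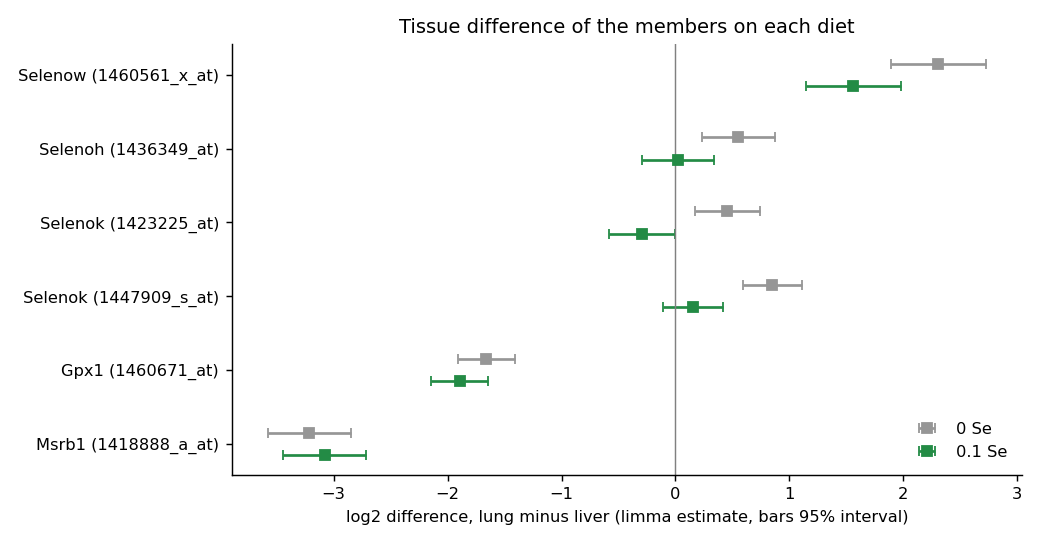
Tissue difference in log2 signal (horizontal axis, lung minus liver, limma estimate with its 95% interval) of the 6 member probe sets tested, on 0 Se and on 0.1 Se. Msrb1 lies at -3.21 and -3.08 and Gpx1 at -1.66 and -1.89, while Selenoh lies at 0.55 on 0 Se and 0.02 on 0.1 Se.

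Among the selenoproteins, members took the first places by the size of the diet difference. Msrb1 in liver and Selenok in lung lay lower, with others that were not members above them. Of 22 selenoprotein genes with a probe set, 17 were tested in liver and 20 in lung, each through its probe set of the highest mean. In liver, Selenow, Selenoh and Selenok took places 1, 2 and 3, Gpx1 place 5 and Msrb1 place 8. In lung, Selenow and Selenoh took places 1 and 2, Msrb1 and Gpx1 places 4 and 5, and Selenok place 8. Since the members were named for their sensitivity to Se, these places are a description.

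None of the other selenoproteins passed adjustment by limma in either tissue. At an unadjusted p under 0.05, 3 of 12 in liver were higher on 0.1 Se (2.94% of all probe sets tested) and 2 lower (3.71% of all). In lung, 2 of 15 were higher (3.55% of all) and 4 lower (4.12% of all). In liver, 8 of the 12 had an estimate above 0, with a median of 0.11. The highest were the thioredoxin reductase Txnrd3 (0.57 ± 0.18) and the iodothyronine deiodinase Dio1 (0.40 ± 0.23), and the lowest Sephs2 (-0.26 ± 0.10), which makes the selenium donor for selenocysteine, and Selenoi (-0.27 ± 0.11), an enzyme of phospholipid synthesis. In lung, 5 of the 15 lay above 0, with a median of -0.11. The highest were the plasma glutathione peroxidase Gpx3 (0.47 ± 0.16) and Selenom (0.31 ± 0.12), and the lowest Sephs2 (-0.48 ± 0.10) and the epithelial glutathione peroxidase Gpx2 (-0.51 ± 0.20).

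**Figure D4:**
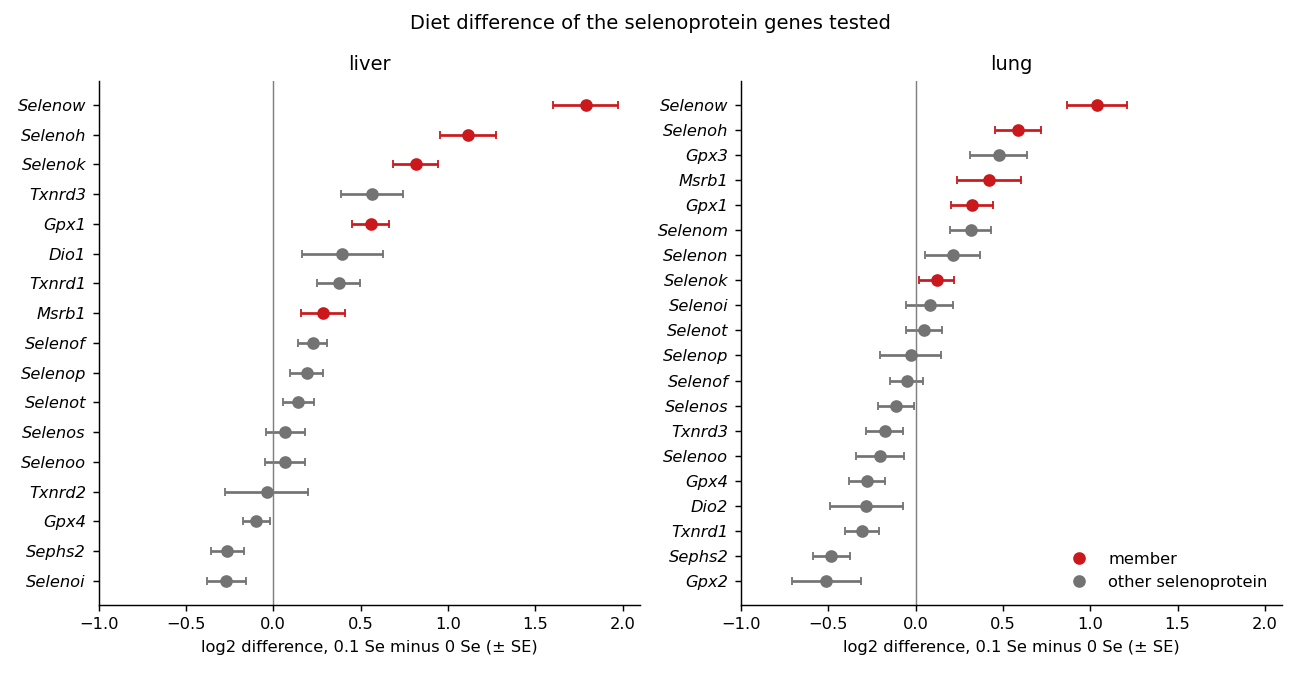
Diet difference in log2 signal (horizontal axis, 0.1 Se minus 0 Se ± SE, limma) of the 17 selenoprotein genes tested in liver and the 20 tested in lung, in falling order. Members are red and the other selenoproteins grey, and Selenow and Selenoh lead in both tissues.

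Genes around the members in their pathways gave no call. Over all probe sets tested, 0.0121% passed in liver and 0.0924% in lung, so 0 calls say little about short lists. The list for making and inserting selenocysteine had 7 genes tested in liver and 9 in lung. It also counts Scly and, in lung alone, Lrp2, which do neither. Its medians were -0.05 and -0.01, and 0 genes passed adjustment by limma. At an unadjusted p under 0.05 there were 0 in liver. In lung, 2 were lower, against 4.12% of all probe sets tested. The 2 were Secisbp2, which binds the selenocysteine stem-loop (-0.29 ± 0.13), and the Sephs2 relative Sephs1 (-0.25 ± 0.11). The nonsense-mediated decay list had 10 and 11 genes tested, with medians of 0.08 and 0.03 and 0 calls (0 also at an unadjusted p under 0.05 in either tissue).

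Relatives that carry cysteine in place of selenocysteine, such as the methionine sulfoxide reductases Msra, Msrb2 and Msrb3, had medians of 0.11 over 5 genes in liver and -0.02 over 6 in lung. Genes known to work beside the members, among them Zdhhc6 and Derl1, which bind Selenok, and the glutathione reductase Gsr, had medians of 0.02 over 6 genes and 0.11 over 7. In each of these lists 0 genes passed adjustment, and 0 had an unadjusted p under 0.05 by limma in either tissue.

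By each array's deviation from the mean of its tissue, the probe set closest to Selenow over the 12 arrays was that of Selenoh. The root mean square difference of their deviations was 0.41, beside a root mean square of 0.77 for Selenow itself, and the next were Lpin2 (0.42) and Cyp2b10 (0.44). For Selenoh (0.47) the closest were Psmb9 (0.21), H2-Aa (0.22) and H2-DMa (0.22). For Selenok (0.32) they were Atp13a2 (0.16), C1qc and Pdxdc1 (0.17 each). For Gpx1 (0.26) they were Dock4 (0.12), Hpcal1 (0.12) and Trim41 (0.13), and for Msrb1 (0.27) Asrgl1 (0.14), Zfp101 (0.15) and Gda (0.15). These values are descriptions over 12 arrays in which diet and tissue are shared, from 12073 or 12072 probe sets compared.

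The arrays matched their tissue labels. The 6 hepatocyte markers with a probe set had values on the liver arrays and a summed signal of 262449 to 320572 there, against 0 to 142 in lung, and the alveolar type 2 markers summed to 96082 to 143965 in lung and 0 to 230 in liver. In whole tissue, fewer cells of a type and less RNA per cell cannot be told apart. Some marker lists had most of their estimates on the same side of 0 in the diet comparison, with 0 genes past adjustment. In liver, 6 of 6 hepatocyte markers had an estimate above 0 (0.10 to 0.16, 0 at an unadjusted p under 0.05 by limma). Macrophage and Kupffer cell markers summed to 19070 to 24175 in 0 Se liver and 25368 to 30947 in 0.1 Se liver. Of these markers, 12 of 12 had an estimate above 0 (median 0.37). At an unadjusted p under 0.05 by limma, 6 were higher, against 2.94% of all probe sets tested. Clec4f, which defines Kupffer cells, had an estimate of 0.39 ± 0.10. NK and T cell markers summed to 0 to 135 in 0 Se liver and 171 to 365 in 0.1 Se liver, near the low end of the table. The 1 tested there, Gzma (0.63 ± 0.22), was higher at an unadjusted p under 0.05 by limma. Sums overlapped in liver for neutrophil (0 to 166 and 127 to 639) and erythroid markers (883 to 1381 and 980 to 1970). In lung, 8 of 8 macrophage and Kupffer cell markers tested were above 0 (median 0.26). Of these, 1 had an unadjusted p under 0.05 by limma, against 3.55% of all probe sets tested that were higher. Clec4f, blank on every lung array, and Timd4, Marco and Vsig4 were not tested there. Timd4, Marco and Vsig4 were listed on 2, 1 and 1 of the 0 Se lung arrays and blank on every 0.1 Se lung array. The sums of the list overlapped (12140 to 12955 on 0 Se and 12393 to 16316 on 0.1 Se).

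Other marker lists in lung gave these values, with 0 genes past adjustment in each. Neutrophil markers summed to 1171 to 3111 in 0 Se lung and 4238 to 17092 in 0.1 Se lung. Cxcr2 and Mmp8 were blank on every 0 Se array and listed on 1 of the 3 arrays on 0.1 Se. Ngp was listed on 1 array of each diet, at 7.27 on 0 Se and 6.98 on 0.1 Se. Of 3 tested, 3 were higher at an unadjusted p under 0.05 by limma, against 3.55% of all probe sets tested. NK and T cell markers summed to 1870 to 2964 and 3609 to 6340. Of 5 tested, 4 were higher at an unadjusted p under 0.05 by limma, against the same 3.55%. The T cell marker Cd3g differed by 0.02 ± 0.20, and Cd3e was blank on every array. Which cells carried the higher signals was not tested. Club and ciliated cell markers had estimates below 0 in 6 of 6 (median -0.42). Of these, 4 were lower at an unadjusted p under 0.05 by limma, against 4.12% of all probe sets tested. Cardiac muscle markers were below 0 in 6 of 6 tested (median -0.60, 0 at an unadjusted p under 0.05). The summed cardiac signal overlapped between the diets, from 3822 to 30680 on 0 Se and from 4280 to 17512 on 0.1 Se. Erythroid sums overlapped too (4225 to 5156 and 5042 to 5395). Of 3 erythroid markers tested, 1 was higher at an unadjusted p under 0.05 by limma, against 3.55% of all probe sets tested. That was Alas2 (0.65 ± 0.12), while Slc4a1 (0.16 ± 0.24) and Tfrc (-0.07 ± 0.13) were not past it. The part of these lists in the members' values was not tested.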

How the data were processed

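Total RNA of liver and lung (3 arrays for each diet and tissue) was labelled with biotin and hybridized to Affymetrix mouse genome arrays. The authors obtained MAS5 signals with every array scaled on its own, without absent calls. R 2.15.2 and affy 1.36.0 stand in the submitters' processing notes. Log2 signals of 29467 probe sets were deposited, from 6.64 (a signal of 100) to 16.4. A blank can be an absent call or a lower signal, and blanks stayed missing. MAS5 scaling assumes that arrays share a mean level. The number of arrays limits the precision, since an exact test of 3 against 3 cannot give a two-sided p under 0.1.

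After leaving out 58 control probe sets, gene names were taken from the platform annotation, updated through RefSeq (24504 probe sets of 1 gene, 24434 of them matched by Entrez number, 660 of several genes and 4245 with no annotation). Listed probe sets numbered 17235 to 17923 per liver array and 22197 to 22718 per lung array. A probe set was tested with at least 2 values in each group compared. Values were compared by limma 3.58.1 (lmFit and eBayes with a trend) in R 4.3.3, with Benjamini-Hochberg adjustment over all probe sets tested and a threshold of 0.05. Diets were fitted within each tissue, and tissue differences and the interaction in 1 fit of the 4 groups. The procedure was tested on simulated data.

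Every member probe set is named. Of the other selenoproteins, the 2 highest and the 2 lowest diet differences in each tissue are named, and of other lists the genes past the test. Secisbp2, Sephs1, Clec4f, the other marker genes and the example genes of the last lists were named after their values were seen. In lists, a gene is represented by the brightest of its probe sets on average. Likeness used the 3 probe sets with the smallest root mean square difference. Marker sums are of unlogged signals with blanks at 0. The members and lists were chosen with earlier results of these data known. Protein sequences and the place of selenocysteine were not used here. Alternatives covered the filter, quantile and median scaling, a pseudocount of 32 added to the signal before log2, eBayes without a trend or with a robust one, weights for arrays, a block for the replicate number, a joint fit of the 12 arrays, the methods' t-test and leaving out each array in turn.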

Additional observations from a re-analysis of the deposited data

How the results depend on the processing

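Among the estimates for single member probe sets, 530 kept their direction and their side of the threshold under the alternatives, 8 reversed, 10 came to pass the threshold and 9 no longer passed it. In liver, where 1 member probe set passed, 0 did with no filter, with no trend and by the methods' t-test, and 3 did in a joint fit of the 12 arrays (Selenow, Selenoh at adjusted p = 0.0114 and Selenok, _s_at, at 0.0251). Leaving out 1 array gave 0 to 2. In lung, where 0 passed, Selenow (_x_at) passed with array weights (1 probe set, adjusted p = 0.0168), and leaving out 1 array gave 0 to 1. On 0.1 Se, quantile normalization gave 5 member probe sets with a tissue difference. Of the estimates that reversed, Selenok (_at) in lung ran from -0.056 to 0.051 over the arrays left out, the tissue difference of Selenoh on 0.1 Se from -0.11 to 0.14 (-0.18 with median centring), and the Msrb1 interaction from -0.092 to 0.28. The tissue difference on 0.1 Se went from -0.29 to 0.35 (adjusted p = 0.0228) for Selenok (_at) with quantile normalization, and to -0.049 for Selenok (_s_at) with median centring. The cause was not tested.

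With the replicate number as a block, 0 member probe sets passed in liver and 1 in lung (Selenow, _x_at, adjusted p = 0.0243), and over the table the calls went from 2 to 0 and from 20 to 53. Arrays of the same number did not deviate together between diets, or between tissues on 0.1 Se. Their correlations were -0.19 to -0.01 between diets in liver, -0.15 to 0.05 in lung and -0.04 to 0.02 between tissues on 0.1 Se. Between tissues on 0 Se they were weak but all above 0, at 0.06 to 0.0997, against -0.09 to -0.01 for arrays of different numbers. On 0 Se alone, every array correlated best with its own number.

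Over the table, the 2 liver calls became 13 in the joint fit, 8 with no filter and 0 with no trend or by the methods' t-test, and ran from 0 to 9 over the arrays left out. The 20 lung calls became 54 with array weights, 13 with a robust trend, 10 after quantile normalization, 8 with a filter on the mean signal, 4 with no filter and 0 with no trend or by the methods' t-test, and ran from 0 to 75. The interaction gave 44 with no filter. Of the tissue calls on 0 Se, 58.2% were higher in lung, against 69.5% after quantile normalization and 48.9% with median centring. On 0.1 Se these shares were 58.7%, 69.7% and 49.4%. Selenow (_at) is blank in liver and could not be compared there.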
